A study of Mus musculus with 12 samples.

Results

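Small nucleolar RNAs (snoRNAs) and small Cajal body RNAs (scaRNAs) were examined in nuclei and cytoplasm of day-14 mouse oocytes, with and without Mtr4. They were taken as every row of the deposited expression table whose symbol begins with Snora, Snord or Scarna and a number, with a value above 0 in at least 1 of the 12 libraries. Of 114 such names, 72 met this and 42 were listed at 0 in every library. The 72 were 33 of 36 Snora names (the H/ACA class), 32 of 69 Snord names (the C/D class) and 7 of 9 Scarna names (the Cajal body class), out of 19513 rows above 0 in the whole table of 23235.

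Each sample held 10 nuclei or 10 cytoplasms, parted by micromanipulation from oocytes of wild-type (WT) or Mtr4-null mice, and each of the 4 groups had 3 libraries. The groups were WT nucleus, WT cytoplasm, Mtr4-null nucleus and Mtr4-null cytoplasm. Neither the labels nor the design text name the allele, the promoter behind the deletion, the strain or the number of mice. Ribosomal RNA was removed before library construction, amplified cDNA of 300 to 400 bp was kept, and pairs of 150 bp reads were taken from it.

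C/D snoRNAs guide the methyltransferase fibrillarin to ribosomal RNA, and H/ACA snoRNAs guide the pseudouridine synthase dyskerin; both work mainly in the nucleolus. ScaRNAs have the same boxes, stay in Cajal bodies and guide modification of spliceosomal RNAs. Most mouse members are cut from introns of host genes and trimmed at their ends, and MTR4, the helicase encoded by Skiv2l2, feeds the nuclear exosome that takes part in this trimming. In a growing oocyte the nucleolus is active in making the ribosomes stored for the embryo.

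The sequences below are those of the members with the most sequenced fragments in each class and of Snora17, an H/ACA member that differed between genotypes; the set was picked after their values were seen. Each is the GENCODE M21 transcript on GRCm38, 5′ to 3′, whole except for Scarna2, whose boxes lie near its end. Capitals mark the C box (TGATGA, its first match) with the last D box (CTGA) after it, or ACA within the last 6 bases.
Snora47: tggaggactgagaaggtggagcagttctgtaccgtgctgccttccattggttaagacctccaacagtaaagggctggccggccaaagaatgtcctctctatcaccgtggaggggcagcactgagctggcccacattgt
Snora17: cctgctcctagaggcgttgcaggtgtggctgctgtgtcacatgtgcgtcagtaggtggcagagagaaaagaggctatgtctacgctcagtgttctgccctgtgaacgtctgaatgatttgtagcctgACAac
Snord17: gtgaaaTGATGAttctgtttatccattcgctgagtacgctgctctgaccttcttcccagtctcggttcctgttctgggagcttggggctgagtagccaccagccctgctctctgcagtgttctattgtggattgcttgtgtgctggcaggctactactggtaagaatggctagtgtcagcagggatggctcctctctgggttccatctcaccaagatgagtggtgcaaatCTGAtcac
Scarna6: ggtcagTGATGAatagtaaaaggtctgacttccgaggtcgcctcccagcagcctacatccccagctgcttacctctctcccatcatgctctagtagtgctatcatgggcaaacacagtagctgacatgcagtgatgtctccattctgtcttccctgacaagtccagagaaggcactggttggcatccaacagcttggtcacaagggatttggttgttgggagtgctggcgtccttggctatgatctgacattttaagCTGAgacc
Scarna2, last 200 bases: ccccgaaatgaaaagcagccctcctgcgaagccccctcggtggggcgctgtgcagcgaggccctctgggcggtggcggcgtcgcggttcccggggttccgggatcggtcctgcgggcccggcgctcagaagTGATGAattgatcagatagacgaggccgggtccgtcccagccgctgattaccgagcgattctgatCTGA

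In GRCm38, Snora47 was at chr13:95330600-95330737 on the plus strand, in an intron of Zbed3. Snora17 was at chr2:26639190-26639321 on the minus strand. Snord17 was at chr2:144265979-144266216 on the minus strand, in an intron of Snx5. Scarna6 was at chr1:87784556-87784820 on the plus strand, in an intron of the autophagy gene Atg16l1, and Scarna2 was at chr3:108554338-108554751 on the minus strand with no host on its strand. The printed Snora47 has no capitals, which says only that ACA is not in its last 6 bases.

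Of the 72 members, 70 had exactly 1 GENCODE entry, and the classes differed in their boxes as their names say. Of these 70, only 10 had the same length in RefSeq and GENCODE. The boxes were sought in the GENCODE transcripts, so the ACA count depends on the GENCODE ends. On the transcript strand, TGATGA was found in 25 of 32 C/D members (78.1%), 0 of 31 H/ACA members and 4 of 7 scaRNAs, against 26.5% of all 1558 snoRNA and scaRNA entries. CTGA after that box was found in 25 of 32, 0 of 31 and 3 of 7, against 24.1%. The 0 of 31 is fixed by the lack of TGATGA in H/ACA members. ACA in the last 6 bases was found in 28 of 31 H/ACA members (90.3%), 3 of 32 C/D members and 4 of 7 scaRNAs, against 46.5%. The loose H box ANANNA was in 31 of 31 H/ACA members but also in 27 of 32 C/D members, and in 91.8% of all entries. Introns of a host on the same strand held 27 of 31 H/ACA, 30 of 32 C/D and 5 of 7 scaRNA members.

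The values are FPKM, a fragment number divided by transcript length and by the depth of the library, and for these short RNAs they are a poor guide to how much was sequenced. For 43 of the 45 members above 0 in 4 or more libraries the values were whole multiples of 1 step, which was read as the FPKM that 1 sequenced fragment is worth in that row. The check is weak or empty for the other members, 13 of which were above 0 in a single library. A step was accepted only where every value up to 60 fragments was within 0.15 of a whole number. That 291 of 291 such values met this in the 69 accepted rows is therefore no check of its own. The step fell steeply with RefSeq length (Spearman −0.98 across 43 rows, which share libraries and depth). In WT nucleus 1, 1 fragment was worth 4246 FPKM in Scarna2 (61 nt), 10.6 in Snord17 (221 nt) and 5.45 in Scarna13 (275 nt). The table's length for Scarna2 is not given, and its step sits where a 61 nt row sits, while the whole GENCODE transcript has 414 bases. Snora47 was not whole, and its fragments were estimated from rows of like length.

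**Figure D1:**
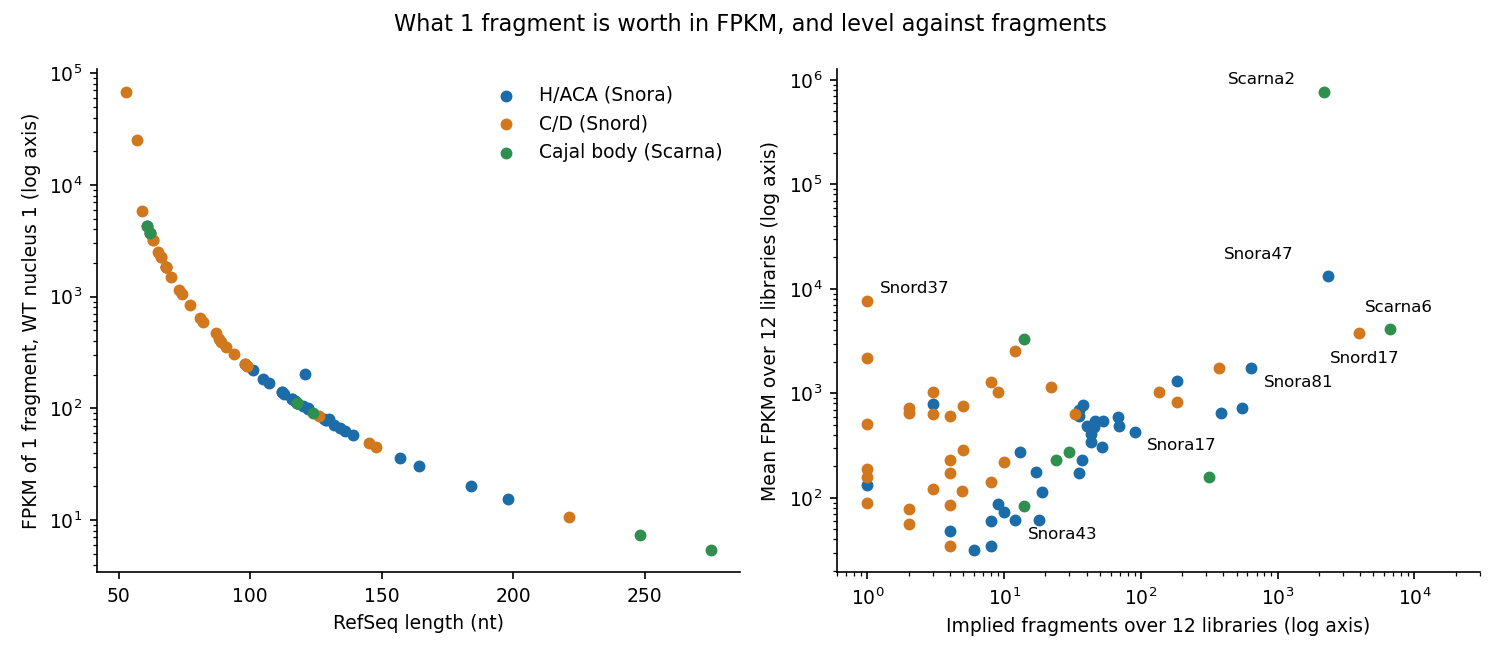
Left: FPKM that 1 fragment is worth in WT nucleus 1 (log axis) against RefSeq length in nt, colours for the 3 classes. Each point is 1 member, without the 3 whose values were not whole. The steps of 23 members were settled through rows of like length, so these follow the trend by construction. A further 3 steps are tied to fragments known only as a lower bound. Right: mean FPKM over 12 libraries against implied fragments summed over 12 libraries (both log axes); Snord85 reaches a mean of 2558 FPKM from 12 fragments, while Scarna6 reaches 4143 from 6606, and Snord37 (7632 FPKM) is drawn at its lower bound of 1.

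Counted in fragments, a few members carried nearly everything. Scarna6 had 6606 fragments over the 12 libraries, Snord17 3930, Snora47 about 2344, Scarna2 2179 and Snora81 639, together 83.0% of 18919. By mean FPKM the order was different: Scarna2 was at 765375, Snora47 at 13354, Scarna6 at 4143, Snord17 at 3753 and Snora81 at 1743. Scarna13 ranked 53 of the members by mean FPKM (158) and 9 by fragments (314). Most members had very few reads, since 24 of 72 had at most 5 fragments in all libraries together and 41 had at most 20.

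Coverage differed by class. The median member had 37 fragments over 12 libraries among H/ACA, 30 among the 7 scaRNAs and 4 among C/D members, and 10, 3 and 4 members had over 50. Length moved with this: median RefSeq length was 121 nt for H/ACA members, 118 for scaRNAs and 75.5 for C/D members. Of the 114 names, 17 of 45 below 70 nt were above 0, then 16 of 28 from 70 to 99 nt, 24 of 26 from 100 nt to below 130 nt and 15 of 15 from 130 nt. A row listed at 0, such as the imprinted C/D RNA Snord116 (90 nt), therefore cannot be told apart from one too short for these libraries.

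Several high FPKM means rest on few libraries or few reads. Snord37 (7632 FPKM) and Snord65 (2196) were above 0 in 1 library each, with fragments known only as at least 1. Snora20 (787) rested on 3, Snord2 (1282) on 8 and Snord85 (2558) on 12. Snord4a, at 1159 FPKM, had 22 fragments, and Scarna17, at 3278, had 14. Snord37, Snord65, Snora20 and Snord2 did not reach 1 FPKM in at least 3 libraries, the filter for testing, which 31 H/ACA, 11 C/D and 7 scaRNA members passed. The lowest that passed by mean FPKM were Snora7a (32.0, 6 fragments), Snora16a (34.9, 8) and Snora75 (48.2, 4).

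Libraries differed in depth and 3 stood apart. Relative to WT cytoplasm 1, the fragment steps put WT nuclei at 0.143 to 0.174, WT cytoplasms at 1 to 1.56, Mtr4-null nuclei at 0.147, 0.129 and 0.398 and Mtr4-null cytoplasms at 0.520 to 1.12. The targeted gene Skiv2l2 was at 7.98, 0.182 and 1.12 FPKM in Mtr4-null nuclei, against 2.45 to 6.06 in WT nuclei, so the library labelled Mtr4-null nucleus 1 goes against its label; which stretch of the gene was deleted is not stated. It was at 0.315 to 1.04 in Mtr4-null cytoplasms against 19.4 to 21.1 in WT cytoplasms. The library labelled Mtr4-null nucleus 3 had the most mRNA of the growth factor Gdf9 among nuclei (2504 FPKM, others 728 to 1289), and WT cytoplasm 1 had the most of the nuclear RNA Malat1 among WT cytoplasms (2.72, others 0.365 and 0.468). All 5 oocyte markers were present, and the 7 granulosa markers summed to 2.81 to 11.2 FPKM over all libraries, with Fst, Inha and Foxl2 at 0 in Mtr4-null nuclei.

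The first comparison asks how these RNAs divide between nucleus and cytoplasm in WT oocytes. Members were nuclear: summed over members, WT nuclei held 3761, 2851 and 4024 fragments and WT cytoplasms 362, 29.4 and 22.9. Scaled to the depth of WT cytoplasm 1, that is 21628, 19907 and 24291 against 362, 18.8 and 16.2. Every nucleus was above every cytoplasm, and WT cytoplasm 1 was far above the other two. Members above 0 numbered 51, 44 and 51 in WT nuclei and 20, 7 and 4 in WT cytoplasms. These are levels relative to all mapped fragments, and in samples of pooled compartments fewer cells and less RNA per cell cannot be told apart.

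Of the 49 tested members, 41 were higher in WT nuclei and 0 lower (limma on log2(FPKM + 1), Benjamini-Hochberg adjusted p below 0.05), where 12% of all tested genes were higher and 45% lower. The median log2 difference was 7.72 for members and −0.90 for all genes. By class, 26 of 31 H/ACA (median 7.71), 8 of 11 C/D (7.49) and 7 of 7 Cajal body members (9.50) were called. Members that pass the filter only through nuclei had to differ, so these counts describe the members and carry no support of their own. Whether the libraries within a group stem from different mice is nowhere stated, so the p-values reflect the spread among libraries only, and that spread may be technical.

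Among scaRNAs, Scarna6 had 1670, 1048 and 1583 fragments in WT nuclei and 146, 5 and 3 in WT cytoplasms. In FPKM that is 12172, 9276 and 12112 against 185, 4.07 and 2.69, a log2 difference of 9.52 ± 1.14 (SE, limma adjusted p = 4.71e-05). Scarna2, whose human namesake directs methylation of U2 RNA, had 478, 211 and 487 fragments in WT nuclei and 23, 0 and 0 in WT cytoplasms. All of its cytoplasmic fragments lay in WT cytoplasm 1, and the log2 difference was 16.00 ± 2.56 (limma adjusted p = 0.000455). Scarna13 followed with 43, 56 and 62 fragments against 2, 0 and 0 (7.79 ± 0.70).

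The low scaRNAs had the same direction on few reads. Scarna8 had 5, 3 and 7 fragments against 1, 0 and 0, and Scarna3a 6, 5 and 7 against none. Scarna3b had 5, 3 and 0 against none. Scarna17 had 2, 1 and 3 against none and yet a fitted log2 difference of 12.83 ± 1.88, because a single fragment weighs heavily in so short a row. All nuclei were above all cytoplasms for 6 of the 7 scaRNAs, Scarna3b being the exception, and for 33 of the 49 members, against 14.1% of all genes.

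Among C/D members, Snord17 had 722, 717 and 851 fragments in WT nuclei and 111, 1 and 0 in WT cytoplasms (log2 10.16 ± 1.49, limma adjusted p = 0.000269). The pair Snord15b and Snord15a, both in introns of the ribosomal protein gene Rps3, had 56, 104 and 50 against 9, 0 and 0, and 12, 19 and 26 against 3, 0 and 0. Snord22, which overlaps an exon of its host Snhg1, had 20, 38 and 45 against 3, 0 and 0 (9.72 ± 1.11). In each of these rows the nuclei were all above the cytoplasms, and WT cytoplasm 1 held most or all of the cytoplasmic fragments.

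Among H/ACA members, Snora74a had 125, 105 and 115 fragments against 15, 0 and 0, Snora81 110, 128 and 124 against 11, 1 and 0, and Snora23 66, 59 and 127 against 14, 0 and 7. Snora70 had 30, 38 and 63 against 1, 0 and 0, a log2 difference of 10.49 ± 1.01 (limma adjusted p = 6.68e-06). Snora47 stood out in having similar values in all 3 WT cytoplasms: 23020, 17422 and 26601 FPKM in nuclei and 115, 176 and 83.4 in cytoplasms, a log2 difference of 7.52 ± 0.48 (limma adjusted p = 8.27e-08). Its cytoplasmic fragments were about 7.74, 18.4 and 7.90, so WT cytoplasm 1 was not the highest for it.

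Other called H/ACA members had no cytoplasmic fragment in WT, on few nuclear ones: Snora5c 8, 9 and 6, Snora68 16, 4 and 4, Snora31 7, 13 and 8, Snora28 14, 8 and 12, Snora33 3, 5 and 14, Snora64 3, 8 and 10 and Snora3 3, 11 and 8. Against cytoplasms at 0 the fitted differences, 9.51 to 10.81, depend on the pseudocount and are no bounds. In all, 13 members were above 1 FPKM in every WT nucleus and at 0 in every WT cytoplasm, the others being Scarna3a, Scarna17, Snora34, Snora43, Snora62 and Snora78. This was counted for members only, so the share among all genes is not known and the count is a description. The other called C/D members were Snord8, with 10, 2 and 5 fragments against 1, 0 and 0 (8.43), Snord104 (7.14), Snord32a (6.57) and Snord33 (6.25).

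Because 1 FPKM is far below 1 fragment in most of these rows, the size of a log2 difference depends on the pseudocount. A pseudocount of 1 fragment, chosen after the data were seen, was therefore also used for members, while all other rows kept 1 FPKM. It was the FPKM of 1 fragment in the shallowest library, Mtr4-null nucleus 2. In WT cytoplasm 1 that equals 7.76 fragments. With it, 35 of 49 members were higher in WT nuclei (23 H/ACA, 5 C/D, 7 scaRNA) and the median fell to 2.21. The log2 difference was then 8.42 for Scarna6, 7.91 for Snord17, 7.55 for Scarna2, 6.54 for Snora47, 6.15 for Snora81 and 6.02 for Snora74a. In these well-covered members the nuclear excess stayed large.

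**Figure D2:**
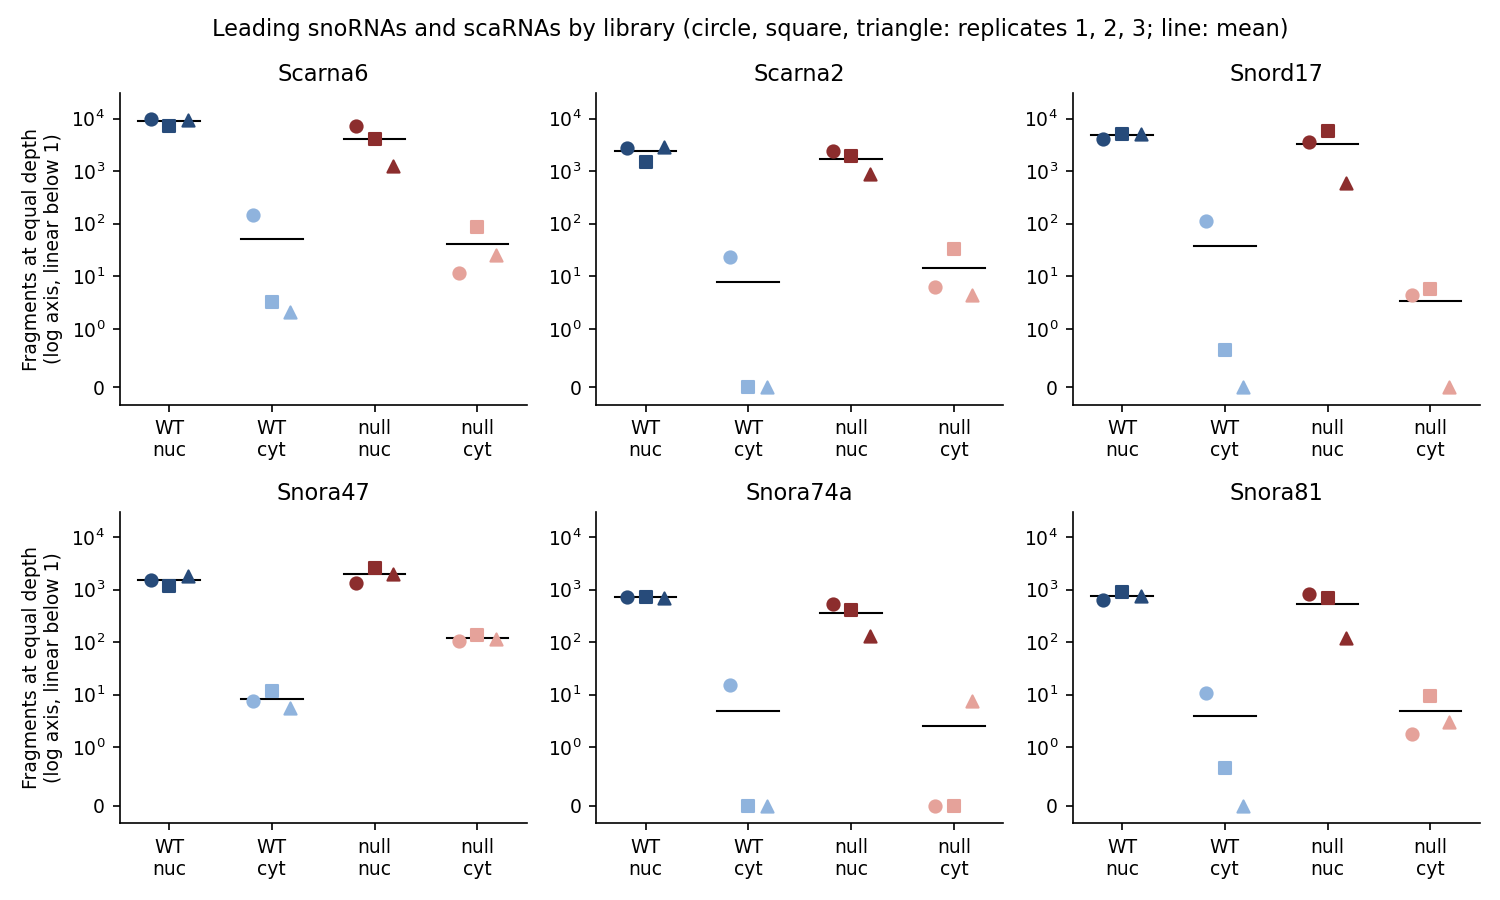
Fragments of 6 leading members in each library, scaled to the depth of WT cytoplasm 1 (log axis, linear below 1), with symbols for replicates 1 to 3 and a line for the group mean. All nuclei lie above all cytoplasms in each panel; WT cytoplasm 1 is the highest WT cytoplasm except for Snora47, whose Mtr4-null cytoplasms all lie above its WT cytoplasms.

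The classes shared out the nuclear fragments unequally. In WT nuclei, scaRNAs made 58.7, 46.6 and 53.4% of member fragments, C/D members 22.6, 31.1 and 24.7% and H/ACA members 18.7, 22.4 and 21.8%. WT cytoplasm 1 was divided like a nucleus (47.5, 36.8 and 15.7% in that order), while H/ACA members made 79.6 and 86.9% in WT cytoplasms 2 and 3, led by Snora47. The scaRNA and C/D shares in WT nuclei came mostly from a few members. Scarna6 alone made 44.4, 36.8 and 39.3% of member fragments there, Scarna2 12.7, 7.40 and 12.1% and Snord17 19.2, 25.2 and 21.1%. By FPKM the division is another one, since Scarna2 alone was 73.2 to 79.6% of all FPKM in WT nuclei, and all members together 80.0 to 84.6%.

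Most hosts lay on the other side from their intronic RNAs. The table lists 46 hosts for 55 members. Of the 45 tested, 30 were lower in WT nuclei and 5 higher, where 45% of all genes were lower and 12% higher. The hosts' median log2 difference was −1.27, against −0.90 for all genes. Median-of-ratios scaling moved that all-gene median by 0.90, so much of the hosts' side is shared with all genes. Zbed3, the host of Snora47, had 957, 913 and 1021 FPKM in WT nuclei against 3008, 3003 and 3237 in WT cytoplasms (log2 −1.68 ± 0.41, limma adjusted p = 0.00404). Atg16l1, the host of Scarna6, differed by −1.16 ± 0.29, and Rps3 by −1.68. The 5 higher hosts were the noncoding Snhg1, Snhg8, Snhg12, AA465934 and 2410006H16Rik. Where the snoRNA lies within its host's exons, as Snord22 in Snhg1, their reads cannot be told apart. For members in introns, the FPKM do not separate the trimmed RNA from unspliced host RNA, and this was not tested.

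The second comparison repeats nucleus against cytoplasm in Mtr4-null oocytes, where the members were again nuclear. Member fragments were 2759, 2400 and 2242 in nuclei and 175, 160 and 133 in cytoplasms, or 18802, 18620 and 5636 against 156, 308 and 199 at the depth of WT cytoplasm 1. The library labelled Mtr4-null nucleus 3 was the lowest nucleus, and cytoplasm 2 was the highest cytoplasm, with scaRNAs at 38.1% of its member fragments against 13.7 and 15.8% in the other two. Of 49 members, 35 were higher in nuclei and 0 lower by limma, where 4.08% of all tested genes were higher and 28.1% lower, with a median of 6.78 against −0.82 for all genes. They were 22 of 31 H/ACA, 7 of 11 C/D and 6 of 7 scaRNA members. For 31 members all nuclei were above all cytoplasms, against 5.95% of all genes, and with a pseudocount of 1 fragment 32 were called.

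In Mtr4-null 14 members were above 1 FPKM in every nucleus and at 0 in every cytoplasm: Scarna3a, Scarna8, Snora5c, Snora15, Snora21, Snora31, Snora33, Snora41, Snora64, Snora68, Snora70, Snord15a, Snord16a and Snord22. Snora5c had 8, 5 and 2 nuclear fragments, Snora70 29, 17 and 4, and Snord15a 24, 93 and 8. Here too the share among all genes was not counted.

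The 2 comparisons use separate libraries, and 33 members were called in both, 80.5% of the 41 in WT and 94.3% of the 35 in Mtr4-null. Called in WT alone were Scarna3b, Snora16a, Snora17, Snora26, Snora43, Snora62, Snord32a and Snord33, and in Mtr4-null alone Snora21 and Snord16a. Snord17 differed by 9.82 ± 1.49 (limma adjusted p = 0.00168), Scarna6 by 6.78 ± 1.14 (0.00352), Scarna2 by 7.36 ± 2.56 (0.0442) and Snora47 by 3.999 ± 0.48 (0.000158). The nuclear difference was smaller in Mtr4-null than in WT for 37 of 49 members (75.5%), against 46.6% of all genes. It was smaller for 28 of 49 without the libraries labelled Mtr4-null nucleus 1 and 3, and for 33 without WT cytoplasm 1 as well. Leaving out 1 library gave 28 (without Mtr4-null nucleus 3) to 42 (without Mtr4-null nucleus 2), with 38 without WT cytoplasm 1. The share of all genes in these refits was not recorded. A test of this change in the nuclear difference, the interaction of genotype and compartment, called 1 member, Snora43. Its only values above 0 are those of WT nuclei. Of all genes, 0.0988% were called in its direction and 0.0228% in the other. Being called in 1 genotype and not in the other is no difference between them for the members that the interaction did not call.

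**Figure D3:**
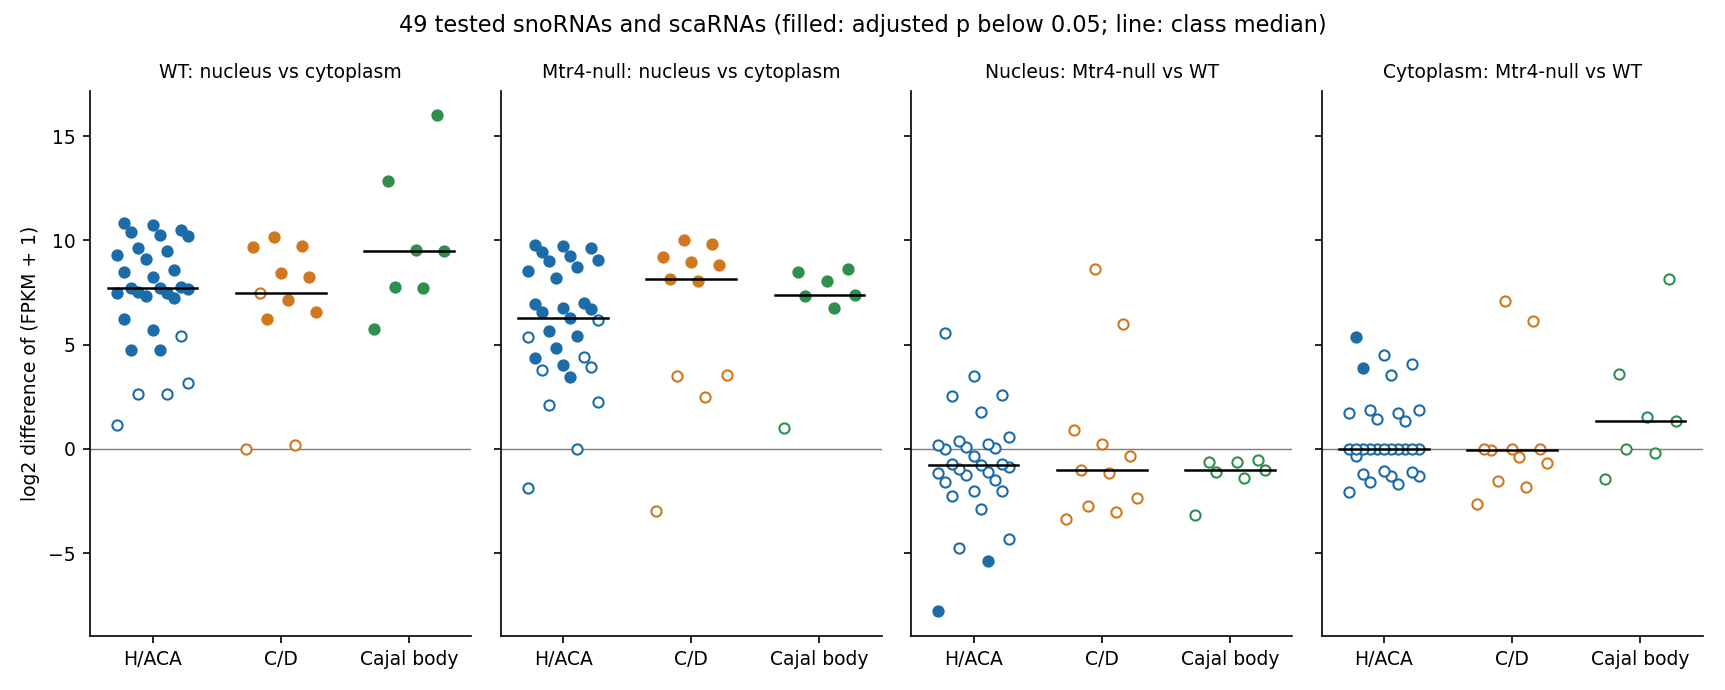
Log2 difference of (FPKM + 1) for the 49 tested members by class in 4 comparisons, 1 circle per member, filled where limma's adjusted p was below 0.05, with a line at the class median. Nearly all members lie above 0 in the first 2 panels, while in the last 2, between genotypes, 2 members each are filled, all of them H/ACA.

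The third comparison asks what changed in nuclei without Mtr4. Of 49 members, 0 were higher and 2 lower by limma, Snora43 and Snora62, both H/ACA; 1.75% of all genes were lower and 0.517% higher. At an unadjusted p under 0.05 there were 12 members (24.5%), 3 higher and 9 lower, against 18.3% of all genes, and with a pseudocount of 1 fragment limma called 1, Snora43. The members' median was −0.88 against 0.04 for all genes, with 34 of 49 below 0. That shift rests largely on the library labelled Mtr4-null nucleus 3: without it the median was −0.036, with 26 of 49 below 0. The class medians were then 0.21 for H/ACA, 0.09 for C/D and −0.64 for scaRNA members. Without the library labelled Mtr4-null nucleus 1 as well they were 0.021, 0.68 and −0.55. With only the library labelled Mtr4-null nucleus 1 left out, the members' median was −1.27, with 39 of 49 below 0. The median of all genes in these refits was not recorded.

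WT nuclei held 3, 2 and 7 fragments of Snora43, or 174, 141 and 426 FPKM, and the other 9 libraries list it at 0. In WT nucleus 1 a fragment of it was worth 57.9 FPKM. Set against a floor of 3 fragments over the group, Snora43 was at least 5.58-fold lower in Mtr4-null nuclei. The limma difference was −7.78 ± 0.38 (adjusted p = 3.73e-08), a size that depends on the pseudocount and is no bound. Without the libraries labelled Mtr4-null nucleus 1 and 3 the bound is at least 1.07-fold lower, since a single shallow nucleus is left. Snora43 passed the filter through WT nuclei alone, so a difference was built into its being tested. It was called in 25 of 25 alternatives, one of them with no filter, with adjusted p from 1.42e-08 to 0.00473, which does not remove that limit.

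Snora62, which guides pseudouridylation of ribosomal RNA, had 2, 1 and 6 fragments in WT nuclei and 0, 1 and 0 in Mtr4-null nuclei. In FPKM this is 161, 97.7 and 507 against 0, 109 and 0. All cytoplasms list Snora62 at 0, so it could not pass the filter without WT nuclei, which favoured a lower call. The groups overlapped. The limma difference was −5.39 ± 1.26 (adjusted p = 0.0389), and it was called in 7 of 25 alternatives (adjusted p from 1.67e-05 to 0.36). The ratio of fragments, at equal depth, was 0.0796 with a 95% counting interval of 0.00182 to 0.575. With the libraries labelled Mtr4-null nucleus 1 and 3 left out it was 0.416, with an interval of 0.00949 to 3.003 that holds no change.

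All 7 scaRNAs had a group mean below that of WT nuclei on the log scale, with a median difference of −0.997, and none passed the test. The direction held for 6 of 7 under quantile normalization, array weights or without the library labelled Mtr4-null nucleus 3. Scarna6 was at 9113, 5093 and 1606 FPKM against 12172, 9276 and 12112 in WT nuclei (log2 −1.40 ± 1.14, limma adjusted p = 0.564). Scarna3a had 4, 2 and 6 fragments against 6, 5 and 7 (−0.997 ± 0.30, adjusted p = 0.0888). For these 2 scaRNAs the nuclear groups did not overlap in FPKM, which allows for depth, and the same held for 4 lower H/ACA members and 1 higher one, Snora34; 6.7% of all genes were apart in the lower direction and 6.22% in the higher. Scarna2 differed by −0.52 ± 2.56 and Scarna13 by −0.65 ± 0.70, though the library labelled Mtr4-null nucleus 1 (588 FPKM) lay above every WT nucleus (234, 371 and 355) for Scarna13. In FPKM the lowest nucleus for Scarna6, Scarna2 and Scarna13 was the library labelled Mtr4-null nucleus 3.

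Without the library labelled Mtr4-null nucleus 1, limma called 6 members. Scarna3a, Snora31, Snora43, Snora52 and Snora78 were lower and Snord85 higher. The share of all genes called in that fit was not recorded, so the count is no result about the members. Leaving out the library labelled Mtr4-null nucleus 3 as well left 1 Mtr4-null nucleus, assumed to vary like the other groups. The same members kept their directions, with Scarna3a at −1.25. Snord85 had 0 fragments in WT nuclei and 0, 8 and 2 in Mtr4-null nuclei, and Snora52 had 7, 15 and 15 against 11, 0 and 3. Snord17 turned from −1.03 ± 1.49 to 0.29 in the fit without the pair. Snord17, Scarna2, Snora47 and Snora74a stayed uncalled in it, as they were with all libraries, where Snora47 differed by 0.36 ± 0.48 (adjusted p = 0.75) and Snora74a by −1.24 ± 1.27 (adjusted p = 0.663).

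The fourth comparison asks whether members appear in the cytoplasm without Mtr4. Of 49 members, 2 were higher by limma, Snora47 and Snora17, and 0 lower, where 1.17% of all genes were higher and 0.714% lower. The median was 0 for members and 0 for all genes, with 17 members above 0, 17 below and 15 with no value in either group. These 2 were also the only members whose cytoplasmic groups did not overlap, against 23% of all genes apart in that direction. At an unadjusted p under 0.05 there were 6 (12.2%), against 12.6% of all genes.

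Snora47 was at 1568, 2036 and 1722 FPKM in Mtr4-null cytoplasms and 115, 176 and 83.4 in WT cytoplasms. Every Mtr4-null cytoplasm was higher, on about 118, 71.0 and 77.3 fragments against 7.74, 18.4 and 7.90. The means were 1775 ± 238 and 125 ± 47.1 FPKM (SD, n = 3), and the limma difference was 3.88 ± 0.48 (adjusted p = 0.000808). It was called in 24 of 25 alternatives and lost only with no filter on low values (adjusted p = 0.0647). In nuclei Snora47 was at 20131, 37914 and 29465 against 23020, 17422 and 26601 FPKM, groups that overlap. Its nuclear excess was thus 7.52 in WT and 3.999 in Mtr4-null, and the interaction was −3.52 ± 0.67 (limma adjusted p = 0.0521), or −2.63 (adjusted p = 0.0375) with a pseudocount of 1 fragment.

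The host of Snora47 did not pass the test in the cytoplasm. Zbed3 was at 3645, 4856 and 3135 FPKM in Mtr4-null cytoplasms against 3008, 3003 and 3237 in WT, a log2 difference of 0.31 ± 0.41 (limma adjusted p = 0.916). Among nuclear RNAs, Malat1 was at 1.002, 3.24 and 2.29 FPKM in Mtr4-null cytoplasms and 2.72, 0.468 and 0.365 in WT, and the 4 nuclear markers summed to 4.64 to 10.2 against 1.98 to 4.18. Their part in the result for Snora47 was not tested. Of the abundant nuclear members, Scarna6 had 13, 44 and 17 fragments against 146, 5 and 3, Scarna2 7, 17 and 3 against 23, 0 and 0, Snord17 5, 3 and 0 against 111, 1 and 0, and Snora74a 0, 0 and 5 against 15, 0 and 0.

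Snora17, an H/ACA RNA, was at 88.0, 262 and 73.9 FPKM in Mtr4-null cytoplasms and 24.7, 0 and 0 in WT, which is 8, 11 and 4 fragments against 2, 0 and 0. Every Mtr4-null cytoplasm was higher (limma 5.35 ± 0.97, adjusted p = 0.011), and the call held in 20 of 25 alternatives (adjusted p from 7.61e-05 to 0.302). The ratio of fragments at equal depth was 19.7, with a 95% counting interval of 4.88 to 173. Without WT cytoplasm 1 the WT group is at 0 and Snora17 was at least 9.85-fold higher against the floor of 3 fragments. With the pseudocount of 1 fragment in the shallowest library it was not called (1.11, limma adjusted p = 0.30). That pseudocount equals 7.76 fragments in WT cytoplasm 1, above the 2 fragments of Snora17 seen there. In nuclei it was at 590, 863 and 280 against 1208, 432 and 1343 FPKM.

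**Figure D4:**
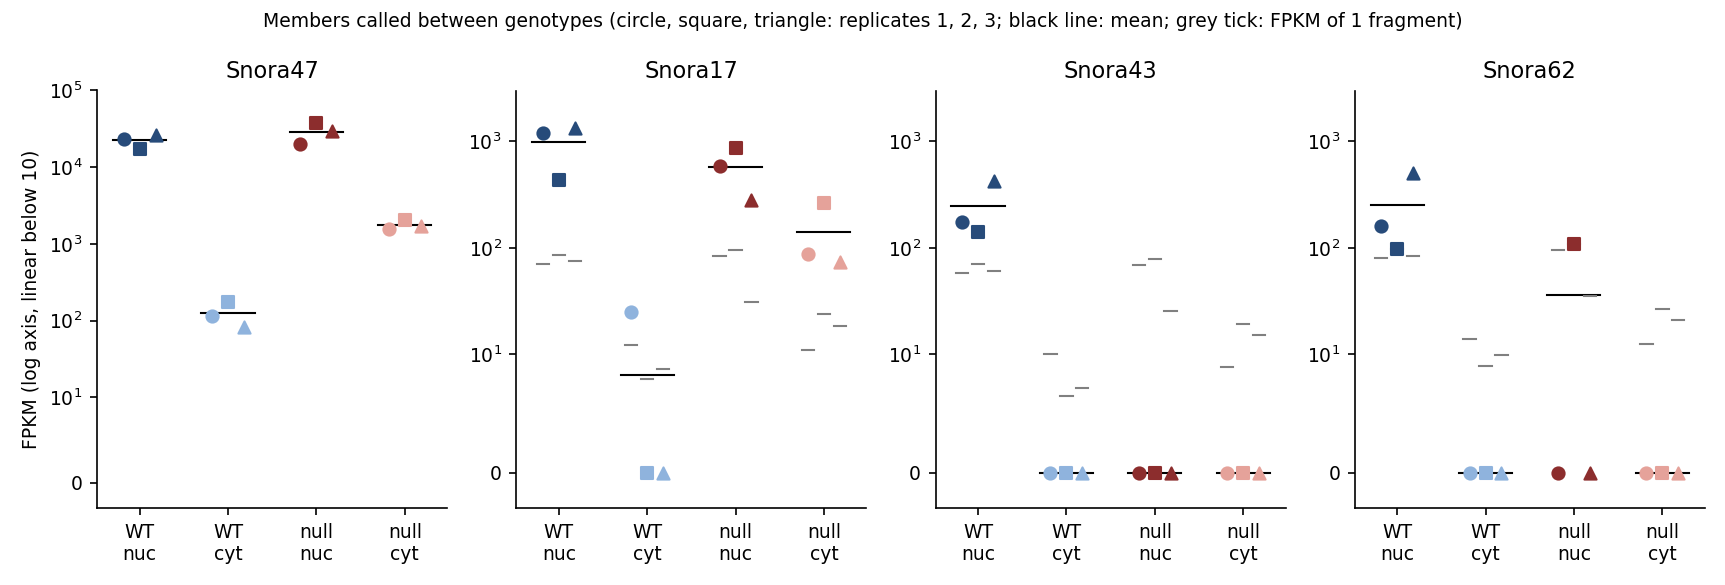
FPKM of the 4 members called between genotypes in each library (log axis, linear below 10), with symbols for replicates 1 to 3, a black line at the group mean and a grey tick at the FPKM of 1 fragment where it is whole. Snora43 and Snora62 sit within a few ticks of 0, while Snora47 rests on about 71.0 fragments or more in each Mtr4-null cytoplasm.

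With all libraries neither Scarna2 (log2 8.12 ± 2.56, limma adjusted p = 0.131) nor Scarna6 (1.34 ± 1.14, adjusted p = 0.796) passed in cytoplasm, and the call for Scarna2 turned on WT cytoplasm 1. Without WT cytoplasm 1, limma called 3 members, Scarna2 (12.81) besides Snora47 and Snora17, while Scarna6 was not called. Without it and the libraries labelled Mtr4-null nucleus 1 and 3, a setting added after the data were seen, it called 5: Scarna2 (12.81, adjusted p = 2.12e-05), Snora17 (6.91), Snora47 (3.85), Snora81 (3.32, adjusted p = 0.0194) and Scarna6 (3.15, adjusted p = 0.0153). The call for Scarna6 needed both changes. The share of all genes called in these refits was not recorded, so their counts are no result about the members.

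Snora17 and Snora43 lie in the span of the same noncoding gene, Snhg7, in the RefSeq table of GRCm38.p6, which gives no strand for it. Snora17 was higher in Mtr4-null cytoplasm, and Snora43 was lower in Mtr4-null nuclei. Snhg7 itself was at 2.52, 6.24 and 1.41 FPKM in Mtr4-null cytoplasms against 0.405, 0.173 and 0.479 in WT, which do not overlap (log2 1.55 ± 0.70, limma adjusted p = 0.363). In nuclei it was at 0, 7.34 and 3.74 against 19.4, 6.60 and 3.26 (−1.36 ± 0.70, adjusted p = 0.322). Of the 45 tested hosts, 0 passed limma's test between genotypes in either compartment.

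The proteins that make and carry these RNAs were taken from a list of 31, all of them tested. In WT, 21 of the 31 had mRNA lower in nuclei than in cytoplasm and 1 higher, the exosome cofactor Zcchc7 (1.19 ± 0.48, limma adjusted p = 0.0434). The list's median was −1.35, against −0.90 for all genes. Among core subunits, Nop56 (−1.35), Nop58 (−1.93) and Nhp2l1 (−1.59) of the C/D particle and Nop10 (−1.58) and Nhp2 (−3.12) of the H/ACA particle were lower in nuclei. Fibrillarin (Fbl, −0.78, adjusted p = 0.0814), dyskerin (Dkc1, −0.11, adjusted p = 0.761) and Gar1 (−0.97, adjusted p = 0.103) did not pass. That is the opposite side from the RNAs that these proteins bind, and the side on which 45% of all genes lay. In Mtr4-null oocytes 14 were lower in nuclei and 0 higher, where 28.1% and 4.08% of all genes were.

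Between genotypes 1 of the 31 was lower in each compartment and none higher, where 1.75% of all genes were lower in nuclei and 0.714% in cytoplasm, so the counts say nothing of the list. In nuclei it was Wrap53, which carries scaRNAs and telomerase RNA to Cajal bodies, at 1.76, 0 and 0.108 FPKM in Mtr4-null and 3.46, 3.0 and 3.89 in WT (−1.61 ± 0.38, limma adjusted p = 0.0389). In cytoplasm it was Dkc1, the H/ACA pseudouridine synthase, at 17.4, 12.7 and 15.1 FPKM in Mtr4-null and 31.6, 40.1 and 37.1 in WT (−1.22 ± 0.30, limma adjusted p = 0.049). In both rows every Mtr4-null library was below every WT library. The same held for 6.7% of all genes in nuclei and for 2749 of 13157 in cytoplasm, so it adds little. The list's median was 0.10 in nuclei and 0.02 in cytoplasm, against 0.04 and 0 for all genes.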

How the data were processed

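Total RNA of day-14 oocyte nuclei and cytoplasms was measured in 12 libraries, 3 in each of 4 groups. Per the submitters' processing notes, TopHat2 2.1.1, Cufflinks 2.2.1 and the build mm9 were used; the authors deposited 1 table of FPKM, with no counts. The design text speaks of duplicates, while the labels give 3 libraries per group.

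Here log2(FPKM + 1) was fitted with limma 3.58.1 (R 4.3.3), with a mean per group and a variance trend, over the 13157 genes that reached 1 FPKM in 3 or more libraries. Tests were two-sided, with Benjamini-Hochberg adjustment over all of them. The fit was tested on simulated data. Fragments per value were recovered from the whole-number steps of each row, and the steps' ratio gave relative depth: totals are unknown. Of the 72 members, 23 steps were settled through rows of like length (within 10%), 3 members (Snora47, Snora24, Snord7) were not whole, and 3 (Snord37, Snord65, Snord52) gave a lower bound. Snora26 lies off the curve of step on length, so its fragments may be too few. Counting intervals and floors cover counting error only.

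The members and lists were chosen with earlier results of these data known. Named are all tested scaRNAs, the 8 highest H/ACA and C/D members by mean FPKM, called members (up to 12 per class and direction), members at 0 in 1 group, those nearest the filter, hosts and core proteins. Genes named as leading by fragments, the step recovery and the printed sequences were chosen after the values were seen. Hosts and sequences come from GENCODE M21 on GRCm38 and lengths from RefSeq; neither is the authors' build, so no coordinate was joined to the table. No sequence is given for Snora43, which has 2 entries. Alternatives are in the closing section. Figures used matplotlib 3.10.9.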

Additional observations from a re-analysis of the deposited data

Results flagged for a closer look

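Snora43 was the 1 member called in the test of whether the difference between genotypes differs between nucleus and cytoplasm (limma interaction −7.78 ± 0.54, adjusted p = 5.13e-06). It had 3, 2 and 7 fragments in WT nuclei and was listed at 0 in the 9 libraries of the other groups, so the estimate rests on 12 fragments, equals its difference in nuclei and is no support of its own: the row was tested only because of its WT nuclei. It was called in 23 of 24 alternatives (adjusted p from 6.88e-07 to 0.0742) and lost with a pseudocount of 1 fragment.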

How the results depend on the processing

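Counts of members called are given in the order WT nucleus against cytoplasm, the same in Mtr4-null, Mtr4-null against WT in nuclei, in cytoplasm, and the interaction, where the values reported were 41, 35, 2, 2 and 1. In nuclei between genotypes 1 was called with a pseudocount of 0.1 FPKM, a filter of 5 FPKM, rescaling over rows that are not members, a fit of the compared groups alone or a pseudocount of 1 fragment, 4 with array weights, 6 without the libraries labelled Mtr4-null nucleus 1 and 3, and 7 without these and WT cytoplasm 1. In cytoplasm limma called 0 with no filter (4 at an unadjusted p under 0.05), 6 with array weights, 1 with a pseudocount of 1 fragment and 5 without those 3 libraries. The interaction called 2 with a filter of 5 FPKM, median-of-ratios scaling, rescaling, quantile normalization or no variance trend, 5 with array weights, 4 without the pair of nuclei and 8 without the 3 libraries. The cause of these changes was not tested, and the share of all genes called under each setting was not recorded. Leaving out 1 library at a time gave 34 to 42, 25 to 36, 1 to 6, 1 to 3 and 1 to 3. The 6 came without the library labelled Mtr4-null nucleus 1, the 1 in cytoplasm without WT cytoplasm 2, and the interaction's 3 without WT nucleus 2, WT cytoplasm 1 or Mtr4-null nucleus 2. Other settings kept both compartment counts within 1.5 times. Median-of-ratios scaling moved the all-gene median by 0.90 and 0.77 between compartments, and no member became lower in nuclei by it. Directions turned for Snord17 in nuclei (0.29 without the pair of nuclei, with or without WT cytoplasm 1), Snord17 in cytoplasm (0.17 with array weights, 1.68 without WT cytoplasm 1, alone or with the nuclei, and 0.43 without Mtr4-null cytoplasm 3, in a range of −2.16 to 1.68 over the libraries left out) and Snora47 in nuclei (−0.076 with array weights). None of these was called in the reported fit.

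The labels do not say whether replicate numbers pair the libraries. Deviations from group means had correlations of −0.16 to 0.30 between same-numbered libraries, with 3 of 18 over 0.1. Those were Mtr4-null nucleus with Mtr4-null cytoplasm in replicates 2 (0.30) and 3 (0.12), and WT nucleus with Mtr4-null nucleus in replicate 1 (0.12). With 3 libraries per group such values cannot show whether samples were paired. With the replicate number as a block, 43, 38, 2, 3 and 1 members were called, Snora30 (4.50, adjusted p = 0.0428) being added in cytoplasm.

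Depth limits most members, since 41 of 72 have 20 fragments or fewer over all libraries.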
